A study of Mus musculus with 23 samples.

Results

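The RNA of 6 genes of ketone body metabolism was followed through the liver of juvenile mice: Acat1, Bdh1 and Bdh2, named for steps of ketone body synthesis, Oxct1, the gene of ketone body use, and the transporters Slc16a1 and Slc16a6. They were chosen by name, with earlier results of these data known, as 6 of the 49585 genes in the deposited count table. Each was present there under 1 identifier. All 6 averaged at least 10 counts per library, the filter that left 14466 genes for testing. The animals were 23 C57Bl/6J mice, all of 1 inbred strain, and the tissue was whole liver. Their mothers ate a control diet with 10% fat or a high fat diet with 45% fat, starting at 3 weeks of age and lasting 7 or 17 weeks, and were mated to males on the control diet. The high fat diet is the model of maternal metabolic syndrome (MetS). Litters were reduced to 5 pups and given to foster dams on the day of birth, so each group name gives the exposure before birth first and the exposure during nursing second. Ct-Ct pups (n = 6) had neither exposure, MetS-Ct pups (n = 6) only the prenatal one, Ct-MetS pups (n = 6) only the one during nursing, and MetS-MetS pups (n = 5) both. Livers were taken at postnatal day 21, except that of MetS-Ct_97, which is labelled day 22. The comparisons ask whether exposure before birth, exposure while nursing, or both, changed the RNA of these genes.

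Ketone bodies are made in liver mitochondria when fatty acids are oxidised faster than the citric acid cycle takes up acetyl-CoA, as in fasting and in suckling pups, whose milk is rich in fat. Thiolases such as ACAT1 join acetyl-CoA into acetoacetyl-CoA, from which acetoacetate is made, and BDH1 reduces acetoacetate to beta-hydroxybutyrate. Both products leave the hepatocyte through monocarboxylate transporters and are burned elsewhere by OXCT1, an enzyme that mature hepatocytes are known to hold very little of.

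Each library held between 16876460 and 34527932 counts, and the MetS-MetS libraries were the shallowest on average (22298680 ± 4696465, SD, against 27005778 ± 1222640 in Ct-Ct). Levels are given as CPM, the count of a gene as a share of its library after scaling for composition, and changes as log2 fold changes from edgeR's quasi-likelihood test, with p-values adjusted over all 14466 genes by the Benjamini-Hochberg method and a gene called where that value was under 0.05. The labels carry no sex, litter or cohort for single animals, so the p-values measure only the spread between these pups, some of which may be littermates. The tissue label fits its markers: the summed level of 10 hepatocyte genes, Alb among them, lay between 132167 and 180170 CPM in every library. MetS-Ct_70 and MetS-Ct_97 stood apart from the other Ct-nursed pups in fatty acid synthesis genes: Scd1, which makes monounsaturated fatty acids, was at 318 and 940 CPM there, against 2906 to 23015 CPM in the other Ct-nursed libraries and 1266 to 4210 CPM in MetS-nursed ones. Leaving out this pair changed some results on the members. Where it changed a call, or moved a member's printed log2 fold change by over 1.5 times, the value without it is given. Adjusted p-values of members that were not called also moved without the pair, and these are given only in part.

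Per length of exon, 2 of the enzymes dominated. Over all 23 libraries Acat1 averaged 138 ± 19.2 (SD) CPM per kilobase and Bdh1 119 ± 30.0, and Acat1 was the higher of the pair in 17 of 23 libraries, so their order did not hold in every library. Slc16a1 followed at 22.1 ± 5.82 CPM per kilobase, below Bdh1 in 23 of 23 libraries, and Slc16a6 at 4.30 ± 1.43, below Slc16a1 in 23 of 23. Oxct1 averaged 3.05 ± 0.71 CPM per kilobase and was below Slc16a6 in 18 of 23 libraries, with overlapping ranges. Bdh2 was last at 0.97 ± 0.32 and lay below Oxct1 in 23 of 23 libraries. Oxct2a and Oxct2b, the testis relatives of Oxct1, had 0 counts in every library. The spread over all libraries was smallest for Acat1 (coefficient of variation of CPM, 14%), was 23.3% for Oxct1, 25.3% for Bdh1 and 26.4% for Slc16a1, and was largest for the thinly counted Bdh2 (32.8%, 46 to 226 counts per library) and for Slc16a6 (33.2%).

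The sequence just before the annotated start is shown for the 2 members that passed the test below, Bdh1 and Oxct1, and for Slc16a1, whose promoter differs most from theirs. RefSeq promoters of the GRCm38.p6 assembly were found for 4 of the 6 members, with none for Acat1 and Slc16a6. Each line gives the 200 bases from 250 to 51 before the start on the plus strand, 5′ to 3′, and coordinates are those of that assembly, since no source used here names the build behind the counts. Bdh1 has 2 annotated starts, with windows at chr16:31422047-31422246 and chr16:31428503-31428702. Oxct1 has 1, with its window at chr15:4026178-4026377, and Slc16a1 has 1, with its window at chr3:104638414-104638613. Capitals mark a CACGTG (E-box) and, nearer the start, a GGGCGG (GC box).
Bdh1, first start: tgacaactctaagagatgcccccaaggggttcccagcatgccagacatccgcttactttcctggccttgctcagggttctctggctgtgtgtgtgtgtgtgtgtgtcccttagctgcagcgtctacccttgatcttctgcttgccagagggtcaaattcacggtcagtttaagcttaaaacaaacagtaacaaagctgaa
Bdh1, second start: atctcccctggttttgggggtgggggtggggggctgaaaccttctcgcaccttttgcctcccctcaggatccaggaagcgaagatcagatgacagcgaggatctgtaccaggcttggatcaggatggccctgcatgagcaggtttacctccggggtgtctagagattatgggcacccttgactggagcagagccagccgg
Oxct1: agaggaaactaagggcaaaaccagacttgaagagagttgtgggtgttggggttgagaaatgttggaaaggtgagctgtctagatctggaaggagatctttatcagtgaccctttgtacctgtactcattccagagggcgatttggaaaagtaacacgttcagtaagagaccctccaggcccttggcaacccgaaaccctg
Slc16a1: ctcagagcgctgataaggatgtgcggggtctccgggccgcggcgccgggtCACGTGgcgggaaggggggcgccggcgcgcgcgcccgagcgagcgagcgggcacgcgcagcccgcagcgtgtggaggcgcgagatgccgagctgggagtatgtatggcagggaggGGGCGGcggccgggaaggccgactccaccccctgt
The Slc16a1 window is 76.0% G and C with 30 CpG dinucleotides and lies at the 97.1 percentile of GC content among 32851 mouse promoters of this length, whose medians are 51.5% and 4 CpG. The Oxct1 window (48.0%, 3 CpG) and the Bdh1 windows (50% with 3 CpG and 59.0% with 5) lie near those medians. On both strands 7 motifs were searched, none of which contains another except AGGTCA, which AGGTCANAGGTCA repeats. They are held by 11.4% (AGGTCA), 0.0244% (AGGTCANAGGTCA), 28.4% (CCAAT), 9.14% (TATAAA), 24.6% (GGGCGG), 0.828% (TGACGTCA) and 4.34% (CACGTG) of all promoters. The Slc16a1 window held CACGTG and GGGCGG, the Bdh2 window held CCAAT on its minus strand, and none of these letters occurred in the Bdh1 and Oxct1 windows.

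Among the synthesis enzymes, Bdh1 was higher in pups nursed by MetS dams. Its level was 357 to 439 CPM in Ct-Ct (median 403) and 291 to 474 CPM in MetS-Ct (median 359). In Ct-MetS it ranged from 292 to 638 CPM (median 545), and in MetS-MetS it was 473 CPM in MetS-MetS_39, 608 in MetS-MetS_109, 636 in MetS-MetS_110, 672 in MetS-MetS_154 and 493 in MetS-MetS_157. The MetS-MetS pups all lay above the Ct-Ct pups, and 8 of 11 MetS-nursed pups lay above all 12 Ct-nursed ones. The exception at the low end was Ct-MetS_50 (292 CPM), which sat beside the lowest Ct-nursed pup, MetS-Ct_53 (291 CPM), while 10 of 11 MetS-nursed pups were above the Ct-nursed mean. Averaged over both prenatal states, Bdh1 rose with postnatal exposure by 0.50 ± 0.11 (log2, SE; 95% interval 0.27 to 0.73), a ratio of 1.41, with an adjusted p of 0.0135 by edgeR.

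Acat1, the mitochondrial thiolase, lay at 411 to 616 CPM in Ct-Ct (median 449), 388 to 534 CPM in MetS-Ct (median 501) and 463 to 597 CPM in Ct-MetS (median 526). In MetS-MetS it was 619, 565, 597, 662 and 544 CPM, with the pups in the same order as for Bdh1. Every MetS-MetS pup was thus above every MetS-Ct pup, and the overlap with Ct-Ct came from Ct-Ct_33 at 616 CPM, the other Ct-Ct pups being at 523 CPM or less. The change with postnatal exposure was 0.21 ± 0.075 (log2, SE; 95% interval 0.057 to 0.37), which did not pass with edgeR's adjusted p of 0.105. Without Ct-Ct_33 it was 0.26 with an adjusted p of 0.0285, and no other fit that left out 1 library called Acat1 here. It also did not pass with DESeq2 (adjusted p = 0.0588), with limma-voom (adjusted p = 0.0957) or in edgeR without MetS-Ct_70 and MetS-Ct_97 (adjusted p = 0.125).

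Bdh2 encodes a cytosolic dehydrogenase named for the same reaction as BDH1. It was at 2.54 to 4.94 CPM in Ct-Ct, 3.13 to 6.82 CPM in MetS-Ct and 2.64 to 5.64 CPM in Ct-MetS, with medians of 3.56, 3.85 and 3.59 CPM. The MetS-MetS pups had 2.06, 5.22, 5.69, 3.32 and 7.00 CPM, in the same order as above, and so held both the lowest and the highest value of the series. The groups overlapped throughout, and the change with postnatal exposure was 0.030 ± 0.19 with an interval from −0.36 to 0.42 (adjusted p = 0.950, edgeR).

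Oxct1, which encodes the transferase that activates acetoacetate for oxidation, had a low level in every liver but passed the same test as Bdh1. It was at 7.49 to 12.1 CPM in Ct-Ct (median 9.56) and 6.88 to 11.8 CPM in MetS-Ct (median 10.0), and at 12.1 to 15.2 CPM in Ct-MetS (median 13.7). The MetS-MetS pups had 11.9, 10.2, 16.8, 11.4 and 13.5 CPM. The Ct-MetS pups did not overlap with the pups of Ct-Ct or MetS-Ct, although the gap between the lowest of them, Ct-MetS_145, and the highest Ct-Ct pup, Ct-Ct_33, was small (12.14 against 12.13 CPM). Of the MetS-nursed pups 8 of 11 lay above all Ct-nursed ones and 11 of 11 lay above the Ct-nursed mean, while MetS-MetS_39, MetS-MetS_109 and MetS-MetS_154 lay within the Ct-nursed range. The change with postnatal exposure was 0.47 ± 0.10 (log2, SE; 95% interval 0.26 to 0.69), a ratio of 1.39 with an adjusted p of 0.0135 by edgeR. Between 160 and 476 counts per library stand behind these values. The lowest Oxct1 values, 6.88 and 7.40 CPM, were those of MetS-Ct_97 and MetS-Ct_70, and without this pair the change was 0.39 (adjusted p = 0.0377), beside 0.47 for Bdh1 (adjusted p = 0.0420).

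**Figure D1:**
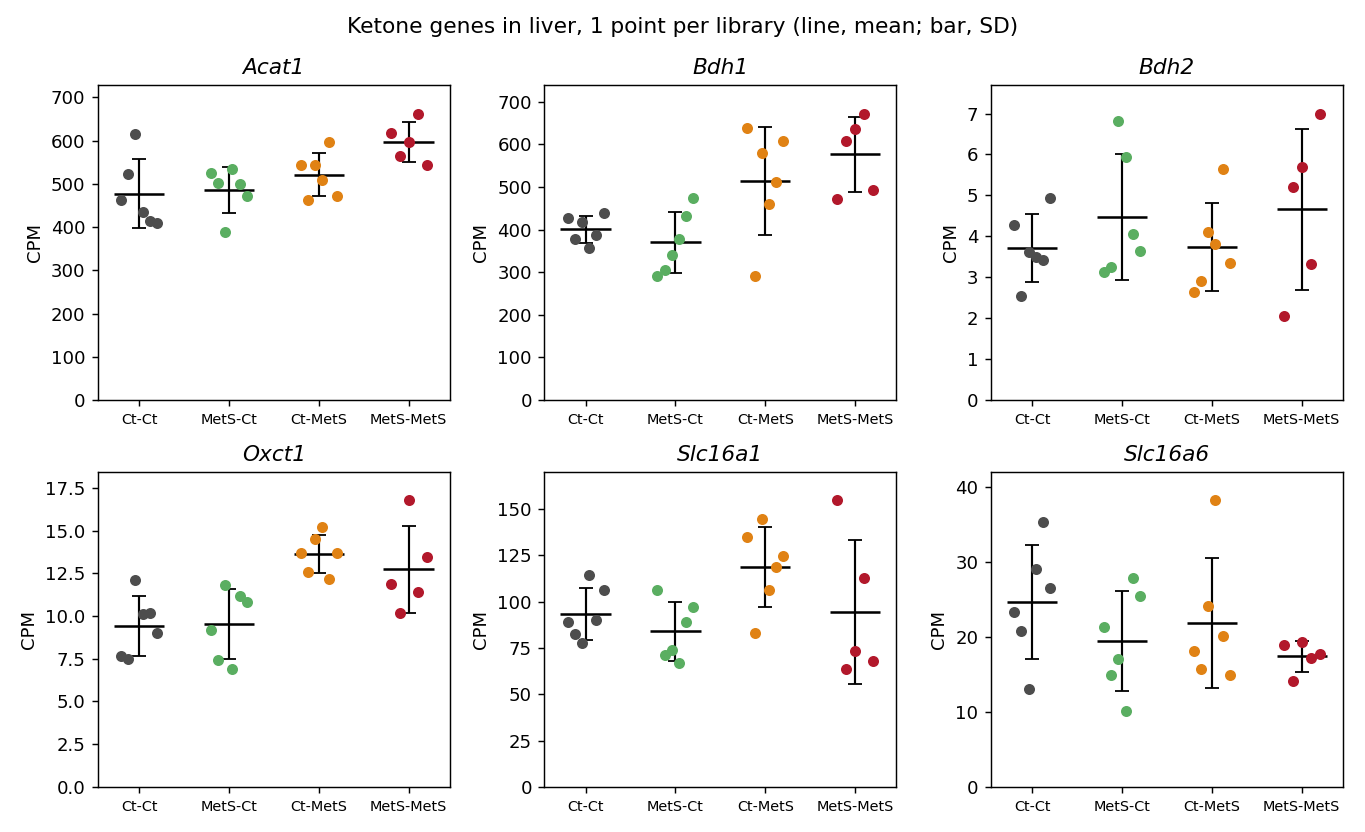
Level of each of the 6 genes in CPM (vertical axes, each starting at 0) by group, with 1 point per library, the group mean as a line and the SD as a bar. Bdh1 and Oxct1 are higher in the groups nursed by MetS dams, with Ct-MetS_50 low for Bdh1, while Bdh2 and Slc16a6 overlap across all groups.

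Neither transporter passed the test. Slc16a1 encodes MCT1, the widely expressed carrier of lactate, pyruvate and ketone bodies, and was at 77.9 to 115 CPM in Ct-Ct (median 89.5), 66.8 to 106 CPM in MetS-Ct (median 81.3) and 83.2 to 144 CPM in Ct-MetS (median 122). The MetS-MetS pups were spread from the lowest to the highest value of the series, with 155, 63.6, 73.4, 113 and 67.7 CPM. MetS-MetS_39 and MetS-MetS_154 were thus near or above the upper end of Ct-Ct, and the other 3 pups were below all of Ct-Ct. The change with postnatal exposure was 0.26 ± 0.14 (95% interval −0.023 to 0.54, edgeR adjusted p = 0.281), and that with prenatal exposure was −0.24 ± 0.14 (adjusted p = 0.370). Without MetS-MetS_39, the highest pup, these were 0.13 and −0.37.

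Slc16a6 encodes MCT7, a carrier linked to the export of beta-hydroxybutyrate from hepatocytes. It was at 13 to 35.3 CPM in Ct-Ct (median 24.9), 10.1 to 27.9 CPM in MetS-Ct (median 19.2) and 14.9 to 38.2 CPM in Ct-MetS (median 19.1). In MetS-MetS it was 18.9, 14.1, 19.4, 17.1 and 17.7 CPM, a narrow set (SD 2.05, against 7.59 in Ct-Ct) that lay within the ranges of Ct-Ct and MetS-Ct. The change with postnatal exposure was −0.17 ± 0.18 (95% interval −0.55 to 0.21, edgeR adjusted p = 0.638), or −0.29 without MetS-Ct_70 and MetS-Ct_97 (adjusted p = 0.405), and MetS-MetS against Ct-Ct gave −0.50 ± 0.26 (adjusted p = 0.248). Of its 4883 exonic bases in GENCODE M21, 1052 are shared with Amz2 and 48 with Arsg on the opposite strand. The kit was directional, but no source used here says if strand entered the counting, and without it reads from shared bases cannot be told apart. Arsg, a sulfatase gene with a mean of 1849 counts, fell by 0.52 ± 0.16 in MetS-MetS against Ct-Ct (adjusted p = 0.0494, edgeR), a call that held in 7 of 23 fits that each left out 1 library, and Amz2, with a mean of 527 counts, was at 0.046 (adjusted p = 0.805). Oxct1 shares 467 of 3701 exonic bases with BC037032, which averaged 3 counts, and Bdh1 shares 533 of 3888 with Gm15743, which had 0.

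For exposure during nursing, 2 of 6 members rose (Bdh1 and Oxct1), 0 fell, and the median change of the 6 was 0.24. Over all genes tested 2.27% rose and 1.95% fell, 4.22% in all, and the median change was −0.0075. At an unadjusted p under 0.05, 3 of 6 members were higher, against 10.6% of all genes. Acat1 was the third of them, with an unadjusted p of 0.00943 in edgeR. Both calls held in each of the 23 fits that left out 1 library, with a change of 0.46 to 0.56 for Bdh1 and of 0.41 to 0.51 for Oxct1.

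For exposure before birth edgeR called 0 of 6 members, DESeq2 0 and limma-voom 0, with 0 of 6 at an unadjusted p under 0.05, where edgeR called 0.00691% of all genes and 16.3% had an unadjusted p under 0.05. The changes ranged from −0.33 ± 0.18 for Slc16a6 (adjusted p = 0.355, and −0.22 without MetS-Ct_70 and MetS-Ct_97) to 0.29 for Bdh2 (adjusted p = 0.437), and Bdh1 (0.023) and Oxct1 (−0.041) were near 0, also without that pair (0.050 and 0.044). Whether the postnatal change differed with prenatal exposure was tested as an interaction: edgeR, DESeq2 and limma-voom each called 0 of 6 members, 0 of 6 had an unadjusted p under 0.05, and edgeR called 0% of all genes, 5.44% of which had such a p. For Bdh1 the interaction was 0.28 ± 0.22 with an interval from −0.18 to 0.74, an interval that includes a difference as large as the postnatal change itself.

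**Figure D2:**
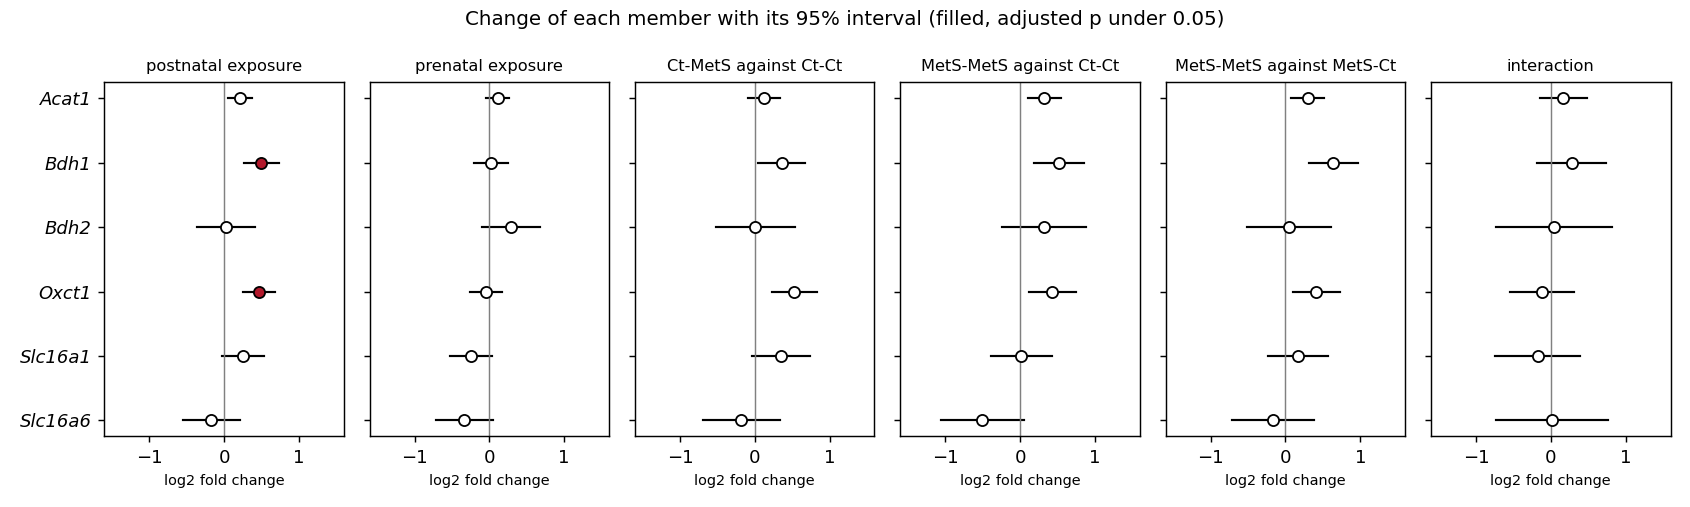
Log2 fold change (horizontal axes) of each member with its 95% interval, 1 panel per comparison, filled where the adjusted p is under 0.05. The only filled points are Bdh1 (0.50) and Oxct1 (0.47) for postnatal exposure.

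Comparisons of single groups had wider errors, and since they share libraries they are not independent of each other. In Ct-MetS against Ct-Ct edgeR called 0 of 6 members and limma-voom 0, where 0.954% of all genes were called. Oxct1 was at 0.53 ± 0.14 (adjusted p = 0.0761) and Bdh1 at 0.36 (adjusted p = 0.287), and these 2 of 6 had an unadjusted p under 0.05, against 13.9% of all genes. DESeq2 called 1 member there, Oxct1 (adjusted p = 0.0208), and edgeR called it without Ct-Ct_33 (adjusted p = 0.0320) or without MetS-Ct_70 and MetS-Ct_97 (adjusted p = 0.0383). Without the low Ct-MetS_50, Bdh1 was at 0.48 (adjusted p = 0.0629).

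In MetS-MetS against Ct-Ct, where edgeR called 5.78% of all genes, it called 0 of 6 members and limma-voom 0, and 3 of 6 had an unadjusted p under 0.05, against 24.4% of all genes. Bdh1 was at 0.52 ± 0.16 (adjusted p = 0.0539), Acat1 at 0.32 ± 0.11 (adjusted p = 0.0723) and Oxct1 at 0.43 ± 0.15 (adjusted p = 0.0854). DESeq2 called 2 of these, Bdh1 (adjusted p = 0.0284) and Acat1 (adjusted p = 0.0375), and without Ct-Ct_33 edgeR called Acat1 (adjusted p = 0.0165) and Oxct1 (adjusted p = 0.0367). Bdh1 passed in edgeR without MetS-Ct_149 (adjusted p = 0.0480), without MetS-MetS_39 (adjusted p = 0.0432) or without Ct-MetS_50 (adjusted p = 0.0205). Slc16a1, at 0.018, showed no direction.

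In MetS-MetS against MetS-Ct, where nursing differs and prenatal exposure does not, edgeR called 0 of 6 members, limma-voom 0 and DESeq2 1, and edgeR called 0.415% of all genes. Bdh1 was at 0.64 ± 0.16 (adjusted p = 0.0785 in edgeR and 0.0251 in DESeq2), Acat1 at 0.30 and Oxct1 at 0.41 (both with an edgeR adjusted p of 0.231). Without MetS-Ct_70 and MetS-Ct_97 Oxct1 was at 0.24 (adjusted p = 0.602) and Bdh1 at 0.59 (adjusted p = 0.297), both in edgeR. With all libraries Bdh1, Acat1 and Oxct1, 3 of 6 members, had an unadjusted p under 0.05, against 14.1% of all genes. In edgeR Bdh1 passed without MetS-MetS_39 (adjusted p = 0.0456) or without Ct-MetS_50 (adjusted p = 0.0297).

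The remaining comparisons gave 0 calls among the 6 members in edgeR, DESeq2 and limma-voom alike. In MetS-Ct against Ct-Ct 0 of 6 had an unadjusted p under 0.05, where edgeR called 0% of all genes and 5.9% had such a p. In MetS-MetS against Ct-MetS the count was again 0 of 6, where 0% of all genes were called and 15.6% had such a p, and the changes ranged from −0.33 (Slc16a1, adjusted p = 0.419) to 0.20 (Acat1, adjusted p = 0.382). In MetS-Ct against Ct-MetS, where 0.076% of all genes were called, 3 of 6 members were lower at an unadjusted p under 0.05, against 12.6% of all genes in either direction. These were Oxct1 (−0.51, adjusted p = 0.185, and −0.34 without MetS-Ct_70 and MetS-Ct_97), Bdh1 (−0.48, adjusted p = 0.226) and Slc16a1 (−0.50, adjusted p = 0.284), and Bdh1 passed in edgeR without Ct-MetS_50 (adjusted p = 0.0357). Without MetS-Ct_70 and MetS-Ct_97 the adjusted p in edgeR was 0.652 for Oxct1, 0.663 for Bdh1 and 0.790 for Slc16a1.

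The rest of the ketone pathway was described from a list of 20 further genes, of which 15 were tested. With postnatal exposure 3 rose, 1 fell, and the median change was 0.010. At an unadjusted p under 0.05, 7 were higher and 2 lower, where 21.2% of all genes had such a p. With prenatal exposure edgeR called 0, and the median was 0.11. At an unadjusted p under 0.05, 4 were then higher and 0 lower, against 16.3% of all genes. The 3 that rose belong to the later steps of beta-oxidation, which supply acetyl-CoA: Hadha (0.33, adjusted p = 0.00899, edgeR) and Hadhb (0.48, adjusted p = 0.0135), the subunits of the mitochondrial trifunctional protein, and Hadh (0.42, adjusted p = 0.0133), a dehydrogenase for shorter chains. Mccc1, a subunit of the leucine-degrading carboxylase, fell by 0.18 (adjusted p = 0.0495), a call that held in 4 of 23 fits that each left out 1 library.

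Of 14 genes of fatty acid entry into mitochondria, its control and the start of oxidation, 12 were tested. With postnatal exposure 5 rose, 0 fell, and the median change was 0.31, with 8 higher and 1 lower at an unadjusted p under 0.05. With prenatal exposure edgeR called 0 of them, yet the median was 0.28, with 8 higher and 0 lower at such a p. A shift of this list was thus not shown to be particular to nursing. Cpt1a itself was at 0.37 with prenatal exposure (adjusted p = 0.198). Cpt1a, the gated entry step, rose by 0.53 (adjusted p = 0.0223, edgeR), its inner-membrane partner Cpt2 by 0.52 (adjusted p = 0.0150) and Acsl1, which activates fatty acids, by 0.51 (adjusted p = 0.0175). These calls held in each of the 23 fits that left out 1 library, whereas those of Acadl (0.37, adjusted p = 0.0299) and the carnitine carrier Slc25a20 (0.53, adjusted p = 0.0362) held in 17 and 11. Among 18 regulators and targets of the fasting response, 2 rose with postnatal exposure, 0 fell, and the median was 0.33. At an unadjusted p under 0.05, 6 were higher and 2 lower, against 21.2% of all genes. With prenatal exposure edgeR called 0, and the median was 0.31. At an unadjusted p under 0.05, 8 were then higher and 1 lower, against 16.3% of all genes. Those that rose with postnatal exposure were Vnn1 (1.88, adjusted p = 0.00596), a target of the nuclear receptor PPAR alpha, and Creb3l3 (0.43, adjusted p = 0.0162), a hepatocyte transcription factor of fasting. Foxa2, another hepatocyte transcription factor, was at −0.46 (adjusted p = 0.0568).

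Other monocarboxylate transporters, their chaperones and lactate dehydrogenases made a list of 18, of which 13 were tested. With postnatal exposure 2 rose, 0 fell, and the median change was 0.27. At an unadjusted p under 0.05, 7 were higher and 1 lower, where 21.2% of all genes had such a p. With prenatal exposure edgeR called 0, and the median was 0.13. At an unadjusted p under 0.05, 4 were then higher and 0 lower, against 16.3% of all genes. Ldha, which interconverts pyruvate and lactate, rose by 0.46 (adjusted p = 0.0159, edgeR), and Bsg, the chaperone of MCT1, rose by 0.31 (adjusted p = 0.0440), a call that held in 9 of 23 fits that each left out 1 library. Slc16a7, which encodes the high-affinity transporter MCT2, was at 0.41 for postnatal exposure (adjusted p = 0.0509) and at 0.51 for prenatal exposure (adjusted p = 0.156). It averaged 93.5 ± 24.4 (SD) CPM in Ct-Ct pups, 120 ± 24.7 in MetS-Ct pups, 112 ± 24.7 in Ct-MetS pups and 177 ± 8.96 in MetS-MetS pups. Slc16a3, which encodes MCT4, was at 0.83 (adjusted p = 0.0683) at a level of about 1 CPM. Genes of the circadian clock, whose RNA follows the time of day, made a list of 16 names. Among them Arntl and Bmal1 stand for the same gene. Of 14 tested, 0 were called by edgeR for postnatal exposure, 1 had an unadjusted p under 0.05, and the median was 0.083. For prenatal exposure 0 clock genes were called, 6 had such a p, all higher, against 16.3% of all genes, and the median was 0.40. In MetS-MetS against Ct-Ct 0 were called, and 5 had such a p, all higher, against 24.4% of all genes. At any p 10 were higher and 4 lower there, with a median of 0.65. Dbp was at 2.45 and Arntl at −1.21 (edgeR adjusted p = 0.0868 and 0.361). The part of clock genes in the values of the members was not tested.

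**Figure D3:**
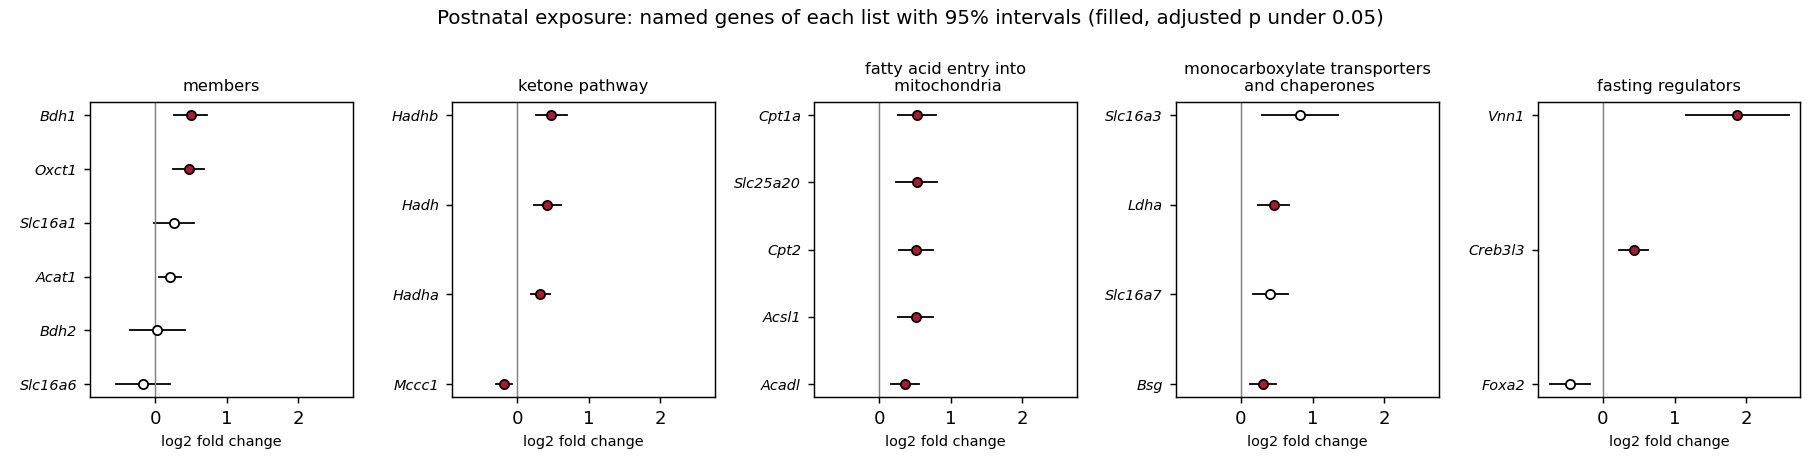
Log2 fold change for postnatal exposure (horizontal axes) of the members and of the genes named from 4 lists (those with the smallest p), 1 panel each, with 95% intervals, filled where the adjusted p is under 0.05. The list of fatty acid entry holds 5 filled points, all higher, the ketone pathway 3 higher and 1 lower, and the transporters and fasting regulators 2 higher each.

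Markers of other cell types moved with postnatal exposure as well. In whole liver a change in the number of cells of a type and a change in RNA per cell cannot be told apart. Of 10 Kupffer and macrophage markers 6 rose and 0 fell (median 0.41), led by Cd68 (0.57, adjusted p = 0.00147, edgeR) and Adgre1 (0.51, adjusted p = 0.00468). Their summed level was 385 to 497 CPM among Ct-Ct pups and 508 to 578 CPM among MetS-Ct pups, with 569 to 797 CPM for Ct-MetS and 486 to 800 CPM for MetS-MetS. Of 15 erythroid genes tested out of 16, 7 rose and 0 fell (median 0.40), led by Slc4a1 (1.66, adjusted p = 0.000308) and Ermap (1.87, adjusted p = 0.000317), with sums of 322 to 941, 279 to 480, 265 to 662 and 521 to 896 CPM in the same order. The erythroid list was not uniform: Klf1 was at −0.39 (adjusted p = 0.179, edgeR). In Ct-MetS against Ct-Ct 9 erythroid genes were higher and 6 lower. The globin gene Hba-a2 was at −0.55 there (adjusted p = 0.338, edgeR) but at 1.35 in MetS-MetS against MetS-Ct (adjusted p = 0.0363). Median levels were 4.65 CPM for Slc4a1, 0.774 for Ermap and 61.5 for Hba-a2. Of 10 endothelial markers 10 were higher, 5 of them at an unadjusted p under 0.05, with a median of 0.26, and 1 passed (Emcn, 0.32, adjusted p = 0.0469, a call that held in 5 of 23 fits that each left out 1 library). Of 10 stellate and fibroblast markers 1 rose (Rgs5, 0.48, adjusted p = 0.0283), a call that held in 21 of 23 fits that each left out 1 library. At an unadjusted p under 0.05, 2 of these 10 were higher and 2 lower, with Ecm1 at −0.22 (adjusted p = 0.143, edgeR). In the other lists 0 of 10 hepatocyte, 0 of 6 cholangiocyte, 0 of 8 neutrophil and monocyte and 0 of 10 lymphocyte markers tested were called. Still, 6 of 6 cholangiocyte markers were lower (median −0.18), 0 of them at an unadjusted p under 0.05. Of the hepatocyte markers 1 was higher and 2 lower at such a p. In MetS-MetS against Ct-Ct 4 hepatocyte markers were higher and 1 lower at such a p, against 24.4% of all genes. Their summed level there had medians of 177624 and 151140 CPM. With prenatal exposure edgeR called 0 genes in every marker list. Of the Kupffer markers 9 were then higher and 1 lower (median 0.095), and of the erythroid genes 4 and 11 (median −0.13). In MetS-Ct against Ct-Ct 0 Kupffer markers were called, yet 10 of 10 were higher (median 0.25). There 4 of them had an unadjusted p under 0.05, against 5.9% of all genes. A rise of the Kupffer list was thus not shown to be particular to nursing. No marker was at 0 in every library, though the neutrophil gene Ly6g was at 0 in 5 and the cholangiocyte gene Sctr in 3. The part of these cells in the values of Bdh1 and Oxct1 was not tested.

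Within groups the members varied largely apart from each other. Of 15 pairs, with group means removed and over 23 libraries that share their depth scaling, 0 had a Pearson correlation with an adjusted p under 0.05 by permutation within groups. Bdh1 and Oxct1, the pair that rose, had r = 0.19 (permutation p = 0.349, adjusted p = 0.641) and rho = 0.22 (permutation p = 0.350), and r = 0.16 without the libraries farthest from the Bdh1 median, Ct-MetS_50 and MetS-Ct_53. The largest in size was that of Bdh2 and Slc16a1 (r = −0.52, permutation p = 0.0503, adjusted p = 0.377), which was −0.26 without MetS-MetS_39 and MetS-MetS_157. The transporters Slc16a1 and Slc16a6 had r = 0.39 (permutation p = 0.0289, adjusted p = 0.377) and rho = 0.51 (permutation p = 0.00882, adjusted p = 0.132), and r = 0.39 without MetS-MetS_39 and Ct-MetS_50.

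**Figure D4:**
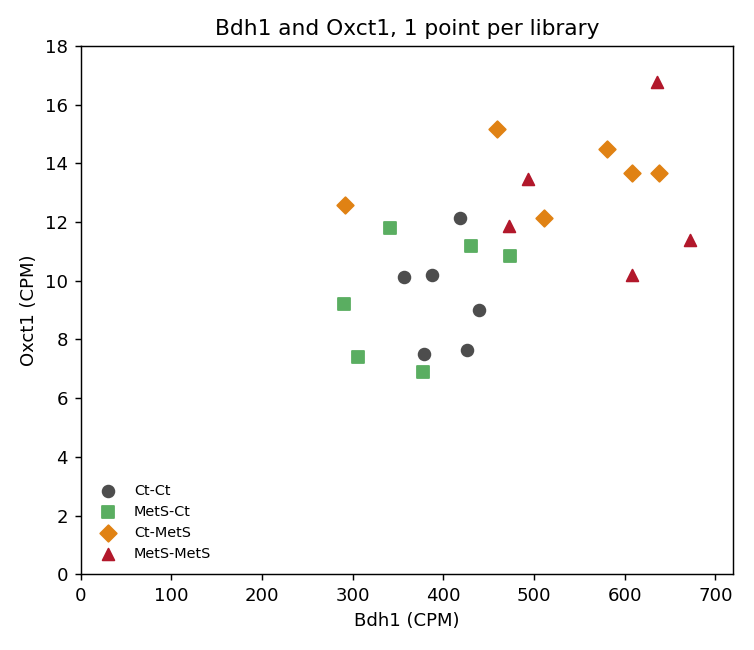
Bdh1 (horizontal axis, CPM) against Oxct1 (vertical axis, CPM), 1 point per library, coloured by group. The Ct-nursed pups fill the lower left, with Bdh1 up to 474 CPM and Oxct1 up to 12.1 CPM, and with group means removed the correlation of the 2 genes is 0.19.

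The genes whose levels ran most nearly parallel over all 23 libraries were sought among the 11231 genes that averaged at least 50 counts, by Pearson r of log2(CPM + 1) without removing group means, as a description. They were Nipsnap3b (0.91), Mapk3 (0.87) and Abcd2 (0.87) for Bdh1, and Rcn1 (0.91), Ccnb2 (0.85) and Depdc1a (0.84) for Oxct1. For Acat1 they were Mgst1 (0.88), Cutc (0.88) and Itm2b (0.86), for Slc16a1 Atf5 (0.85), Spon2 (0.83) and Lrfn3 (0.80), for Bdh2 Cryl1 (0.81), Hnmt (0.81) and Clec2h (0.77), and for Slc16a6 Ccdc186, Col12a1 and Mpp4 (0.77 each). The nearest genes of Bdh1 and Oxct1 were different ones, and neither was among the 3 nearest of the other.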

How the data were processed

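Polyadenylated RNA of 23 livers was sequenced, 1 library per pup, after column extraction with DNase and with a directional kit, per the labels' protocols. The deposited table holds whole-number counts per gene. FastQC, STAR, HTSeq and DESeq2 are named in the submitters' processing notes, while their order, the genome build, the annotation and the use of strand are not stated there. Despite a name that speaks of normalised values, they were taken for raw counts, because DESeq2's size factors on them ranged from 0.623 to 1.43, where scaled values would give factors near 1. Symbols were matched for 49326 of 49585 identifiers. Pairs of libraries within a group had correlations of 0.986 to 0.997 and differed by more than sampling noise, so none is a copy of another in its group. Each was treated as 1 replicate, though pups of a shared litter could not be identified.

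Genes that averaged at least 10 counts were tested with edgeR 4.0.16 (R 4.3.3; quasi-likelihood, robust, TMM factors, 1 mean per group over 23 libraries) and Benjamini-Hochberg adjustment over 14466 genes. Animal numbers pair no samples. The procedure was tested on simulated counts. Alternatives used DESeq2 1.42.0 (an adjusted p it does not give was left missing), limma 3.58.1 (voom), other size factors, other filters, non-robust estimation, only the groups compared, and each library left out in turn. Leaving out MetS-Ct_70 and MetS-Ct_97 together was chosen after seeing the data. Correlations used log2(CPM + 1) and 100000 two-sided permutations within groups (numpy 2.4.6). Exon lengths come from GENCODE M21 and promoters from RefSeq.

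The members, the 5 pathway lists and the 8 marker lists were chosen with earlier results of these data known, so they are no independent support. Tat is in the hepatocyte and the fasting lists. The text names all members, of each pathway list up to 4 genes with the smallest p for postnatal exposure and always Cpt1a, of marker lists the 2 with the smallest p where a result is set beside them, and for each member the 3 genes of most similar pattern, leaving out predicted genes and pseudogenes. A few genes this would include are not reported here. Slc25a20, Scd1, Arsg, Amz2 and the genes overlapping members were named after their values were seen.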

Additional observations from a re-analysis of the deposited data

How the results depend on the processing

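No paired analysis was possible because animal numbers are not shared between groups. Bdh1 and Oxct1 stayed called for postnatal exposure under every alternative run, with a change of 0.47 to 0.50 (adjusted p up to 0.0420) and 0.39 to 0.47 (adjusted p up to 0.0377), and over the fits that each left out 1 library with adjusted p of 0.00124 to 0.0320 and 0.00722 to 0.0292. The count of members called moved elsewhere. In Ct-MetS against Ct-Ct it was 0, but 1 with DESeq2, 1 without MetS-Ct_70 and MetS-Ct_97, and 0 to 1 with 1 library left out. In MetS-MetS against Ct-Ct it was 0, but 2 with DESeq2, 1 with only the 2 groups compared (Bdh1, adjusted p = 0.0314) and 0 to 2 with 1 library left out. In MetS-MetS against MetS-Ct it was 0, but 1 with DESeq2 and 0 to 1 with 1 library left out, and in MetS-Ct against Ct-MetS 0 to 1 with 1 library left out.

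Changes near 0 turned sign, and the cause was not tested. Somewhat larger ones did so too, such as Slc16a1 in MetS-MetS against MetS-Ct (0.17) and Slc16a6 in MetS-Ct against Ct-MetS (−0.16). With limma-voom Bdh2 was at −0.017 in Ct-MetS against Ct-Ct, −0.055 in MetS-MetS against MetS-Ct, −0.038 for the interaction and −0.036 for postnatal exposure, and Slc16a1 at −0.064 in MetS-MetS against Ct-Ct. With upper-quartile factors the interaction was −0.020 for Bdh2 and −0.032 for Slc16a6. Slc16a6 had an interaction of −0.0068 without a filter, and Slc16a1 was at −0.0014 in MetS-MetS against Ct-Ct with a mean of at least 50 counts. Without MetS-Ct_70 and MetS-Ct_97 Acat1 was at −0.020 in MetS-Ct against Ct-Ct, Oxct1 at 0.044 for prenatal exposure, and Slc16a6 at 0.071 in MetS-Ct against Ct-MetS and −0.22 for the interaction. With 1 library left out, signs turned in these ranges: Acat1 in MetS-Ct against Ct-Ct (−0.011 to 0.12), Bdh1 for prenatal exposure (−0.037 to 0.059), and Oxct1 in MetS-Ct against Ct-Ct (−0.052 to 0.10) and for prenatal exposure (−0.099 to 0.0016). Bdh2 did so in Ct-MetS against Ct-Ct (−0.14 to 0.11), MetS-MetS against MetS-Ct (−0.14 to 0.24), the interaction (−0.16 to 0.23) and postnatal exposure (−0.067 to 0.12). Slc16a1 did so in MetS-MetS against Ct-Ct (−0.23 to 0.13) and against MetS-Ct (−0.081 to 0.28), and Slc16a6 in MetS-Ct against Ct-MetS (−0.30 to 0.066) and the interaction (−0.11 to 0.25).

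Over all genes the calls for postnatal exposure were 611, but 367 without a filter, 1044 with DESeq2, 312 without the pair and 349 to 923 with 1 library left out. Calls for prenatal exposure were 1, but 174 with DESeq2, 0 without the pair and 0 to 22 with 1 library left out. The interaction gave 0 (4 with DESeq2) and MetS-Ct against Ct-Ct 0 (12 with DESeq2). Ct-MetS against Ct-Ct gave 138, but 423 with DESeq2, 47 with only the groups compared and 12 to 246 with 1 library left out. MetS-MetS against Ct-Ct gave 836, but 457 without a filter, 1323 with DESeq2, 527 with limma-voom and 219 to 1354 with 1 library left out. MetS-MetS against MetS-Ct gave 60, but 20 without a filter, 30 with a mean of at least 50 counts, 137 with DESeq2, 16 with limma-voom, 23 with only the groups compared, 0 without the pair and 5 to 151 with 1 library left out. MetS-MetS against Ct-MetS gave 0, but 40 with DESeq2 and 0 to 31 with 1 library left out, and MetS-Ct against Ct-MetS 11, but 7 with a mean of at least 50 counts, 99 with DESeq2, 0 with only the groups compared, 0 without the pair and 0 to 64 with 1 library left out. The thinnest members were Bdh2 and Oxct1, with as few as 46 and 160 counts in a library.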
